A study of Mus musculus with 16 samples.

Results

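The genes described here were 34 subunits and receptors for glutamate and GABA, the main excitatory and inhibitory transmitters of the brain, followed in the DNA methylomes of mouse MII oocytes. They were chosen by name: 3 AMPA, 5 kainate, 7 NMDA and 1 delta subunit, 7 metabotropic glutamate receptors, 9 GABA-A subunits and 2 GABA-B subunits. For each gene the methylated and unmethylated calls of all covered CpG positions between its annotated start and end (GENCODE M21 on GRCm38, exons, introns and UTRs together) were pooled in each library, and the percentage of methylated calls is the methylation level of the gene body. All 34 gene bodies held at least 20 calls in every group, as did 20055 of the 21938 protein-coding gene bodies in the annotation.

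The study compared F1 hybrid oocytes (C57BL/6J x CBA/Ca) from 4 sources, by post-bisulfite adaptor tagging (PBAT) of pooled oocytes, in 16 libraries. IFC (n = 4) were oocytes grown in preantral follicles that had been dissected from the ovaries of females aged 13 days, with 10 days of culture in recombinant FSH, then matured with hCG and EGF. SO (n = 5) came from 23-day-old females superovulated with 2.5 IU of eCG and of hCG, and SOA (n = 4) from 10-week-old females superovulated with 5 IU of each hormone. IV (n = 3) came from 10-week-old females that ovulated without injected hormone after exposure to male pheromones. SO and SOA differ in age and dose at once, so the part of each cannot be told apart. IFC and SOA differ in culture, age of the females and hormones at once, which cannot be told apart either. Each library was a pool of oocytes that the study counts as a biological replicate. Which females or cultures went into which pool is not given. The p-values therefore measure the spread between pools, which may be technical in part.

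Ionotropic glutamate receptors (AMPA, kainate and NMDA) are cation channels opened by glutamate, metabotropic glutamate receptors signal through G proteins, GABA-A receptors are chloride channels, and GABA-B receptors are G protein-coupled. These families are best known from synapses. In growing oocytes DNA methylation is laid down mostly within transcribed gene bodies, while CpG-rich promoters and untranscribed regions largely stay without it.

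The start regions of the methylated members, of the least methylated member and of a member with a partly methylated promoter are printed here. Each is the RefSeq window of 250 bases before to 50 bases after a transcript start on GRCm38, 5′ to 3′ on the strand of the gene, and capitals mark each CG dinucleotide, which reads the same on both strands. Windows were found for 25 of the 34 members. Grin3b, whose body was methylated, has its window at chr10:79970474-79970773 on the plus strand, with 3 CpGs. Grm8, the other methylated body, has its outermost window at chr6:28135097-28135396 on the minus strand, with 33 CpGs, and the innermost of its annotated starts 8752 bases inside the gene at chr6:28126377-28126676, with 2 CpGs. Grin1, the least methylated body, has its window at chr2:25319138-25319437 on the minus strand, with 33 CpGs. Grin2c, an unmethylated body behind a partly methylated promoter, has its window at chr11:115267194-115267493 on the minus strand, with 22 CpGs.
Grin3b start: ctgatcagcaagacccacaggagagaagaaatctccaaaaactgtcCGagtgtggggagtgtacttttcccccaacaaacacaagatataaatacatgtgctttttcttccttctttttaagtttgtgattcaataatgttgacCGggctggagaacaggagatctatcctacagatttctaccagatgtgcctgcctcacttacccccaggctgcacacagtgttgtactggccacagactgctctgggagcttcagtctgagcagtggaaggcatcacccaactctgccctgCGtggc
Grm8 outermost start: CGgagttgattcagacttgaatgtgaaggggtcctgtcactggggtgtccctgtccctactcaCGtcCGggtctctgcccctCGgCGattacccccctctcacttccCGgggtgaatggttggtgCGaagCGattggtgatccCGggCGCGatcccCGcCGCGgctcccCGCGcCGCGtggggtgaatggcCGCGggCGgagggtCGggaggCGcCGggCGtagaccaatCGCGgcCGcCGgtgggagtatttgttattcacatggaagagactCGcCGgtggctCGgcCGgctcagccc
Grm8 innermost start: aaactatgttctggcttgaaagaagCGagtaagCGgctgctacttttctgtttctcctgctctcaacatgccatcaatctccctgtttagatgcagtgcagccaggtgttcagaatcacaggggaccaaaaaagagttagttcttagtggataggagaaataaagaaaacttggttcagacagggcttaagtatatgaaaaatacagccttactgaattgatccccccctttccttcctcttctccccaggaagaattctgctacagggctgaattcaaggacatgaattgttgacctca
Grin1 start: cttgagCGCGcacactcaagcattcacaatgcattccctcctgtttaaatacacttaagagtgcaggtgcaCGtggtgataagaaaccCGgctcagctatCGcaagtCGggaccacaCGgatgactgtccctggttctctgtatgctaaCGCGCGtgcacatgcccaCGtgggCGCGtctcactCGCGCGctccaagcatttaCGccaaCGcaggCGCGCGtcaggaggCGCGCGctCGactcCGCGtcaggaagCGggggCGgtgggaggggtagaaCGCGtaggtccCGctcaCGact
Grin2c start: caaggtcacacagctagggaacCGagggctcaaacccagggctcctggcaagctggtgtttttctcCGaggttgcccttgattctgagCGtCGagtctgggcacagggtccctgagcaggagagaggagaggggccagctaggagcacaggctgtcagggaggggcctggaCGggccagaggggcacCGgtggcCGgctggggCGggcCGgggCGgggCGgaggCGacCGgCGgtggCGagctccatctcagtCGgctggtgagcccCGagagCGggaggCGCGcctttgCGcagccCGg

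Over all 16 libraries, 27 of 32 calls in the Grin3b window were methylated (84.4%, 95% Wilson interval 68.2 to 93.1). Of the 32 calls 31 lay at its CpGs. All 7 calls at the CpG 204 bases before the start and all 5 at the CpG 106 bases before it were methylated, and 15 of 19 were at the CpG 44 bases after it. At the outermost Grm8 start 1 of 284 calls was methylated (0.352%, 0.0622 to 1.97), and at a further start 757 bases inside the gene, with 10 CpGs, 1 of 77 was (1.3%, 0.230 to 6.996). At the start 8752 bases inside, 20 of 21 were methylated (95.2%, 77.3 to 99.2). Of these 21 calls 20 lay at its 2 CpGs, all of them methylated. The Grin1 window held 3 methylated calls of 354 (0.847%, 0.289 to 2.46), and the Grin2c window 20 of 87 (23.0%, 15.4 to 32.9). Among 32851 RefSeq windows of mouse genes, 8.56% held at least the 33 CpGs of the Grm8 and Grin1 starts, 23.1% at least the 22 of Grin2c, 76.7% at least the 3 of Grin3b and 85.9% at least the 2 of the innermost Grm8 start. Few CpGs did not go with methylation in other members: the windows of Gabra6 (2 CpGs), Gabrg1 (3) and Grm6 (4) held 2 methylated calls of 47, 0 of 28 (which allows a share of up to 10.7%) and 1 of 67. These intervals, like the others given here, cover counting error only, since reads without molecular identifiers are not independent molecules.

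Depth set the precision. The libraries held 5218053 to 23065411 calls, and 65.5% to 91.5% of covered positions carried a single call. Over all calls of a library, 37.6% (IFC4) to 43.7% (SOA1) were methylated, with 37.9% in SOA4 and 43.2% in IV1. The levels of the receptor genes given here are not adjusted for this. The receptor genes together held 16646 to 74738 calls per library. The 9 shallow libraries, all of IFC, SO1, SO2 and SOA1 to SOA3, held at most 8231898 calls, and the 7 deep ones, SO3 to SO5, SOA4 and all of IV, at least 12126481, so depth differed partly with the groups. IV1 stood apart at weakly methylated genes: among the 5271 gene bodies below 20% in IFC, SO and SOA, it was the highest of the 16 libraries in 42.6%. The labelled cell type could not be checked against expressed markers, because the tables hold methylation only.

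As a group the receptor genes were weakly methylated, with exceptions in several families. The median level of the 34 bodies was 19.9%, against 51.8% over all 20055 gene bodies measured. A body was called methylated where the pooled share was above 80% in each of the 4 groups and unmethylated where it was below 20% in each. By that rule 2 members were methylated (Grin3b and Grm8), 15 were unmethylated and 17 lay between. Over all gene bodies 12.5% were methylated and 25.5% unmethylated. Just inside and just outside the upper limit stood Grm8, at 81.9% in its lowest group, and Grik5, at 79.9% in SOA. At the lower limit Gabrg1 reached 18.2% in its highest group and Grm5 20.7%.

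The NMDA receptor genes spanned nearly the whole scale, from 3.62% at Grin1 to 91.5% at Grin3b, with a median of 22.6%. Grin1 encodes the obligatory glycine-binding subunit, and Grin2c (4.47%) and Grin2d (14.8%) encode glutamate-binding subunits of mainly cerebellar and early brain receptors. Grin2a (22.6%), Grin2b (26.3%) and Grin3a (27.2%) lay between the limits. Among AMPA subunits, Gria2, which governs calcium permeability, stood at 7.58%, Gria1 at 14.8% and Gria4 at 63.9%. The kainate subunits ran from 5.62% at Grik3 through Grik2 (26.2%), Grik4 (34.8%) and Grik1 (45.6%) to 83.3% at Grik5. Grid1, a delta receptor subunit of synapse organization, stood at 75.0%.

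Among metabotropic receptors, Grm6, the receptor of retinal ON bipolar cells, was lowest (5.21%) and Grm8 highest (83.4%). Grm2 (16.7%), Grm5 (18.5%), Grm3 (26.0%), Grm7 (34.1%) and Grm4 (57.7%) filled the range between. The GABA-A genes were lower and closer together, with a median of 15.8%. Gabrd (6.43%), Gabra6 (11.0%), Gabra2 (11.8%), Gabra4 (13.7%), Gabrg1 (15.8%) and Gabrb2 (16.4%) were unmethylated, and Gabrb1 (21.4%), Gabrg3 (37.9%) and Gabra5 (54.2%) lay between. Gabra6 had the fewest calls of any member, down to 12 in SOA2. Both GABA-B subunits, Gabbr1 (4.17%) and Gabbr2 (6.16%), which form the receptor as a pair, were unmethylated.

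**Figure D1:**
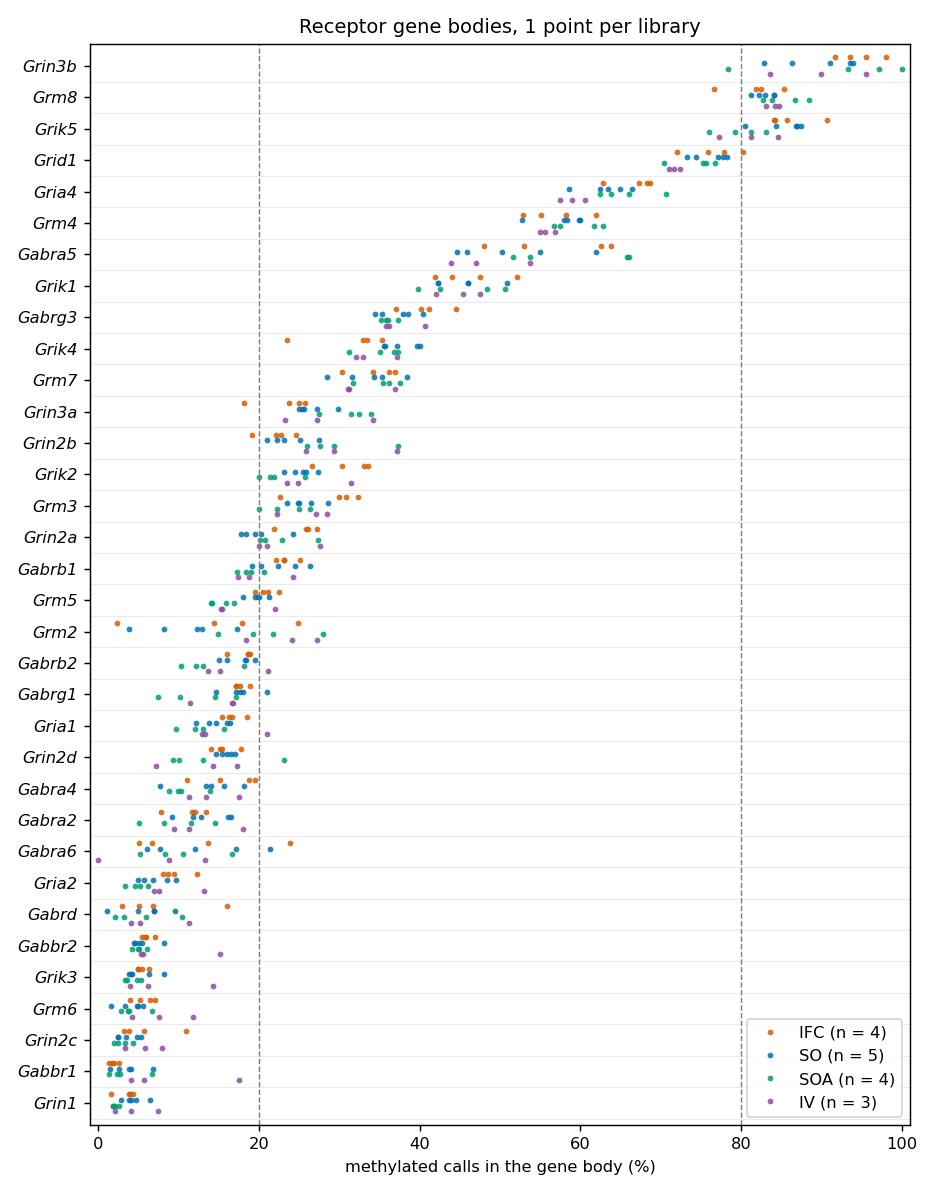
Methylation level of each of the 34 receptor gene bodies (percent of methylated calls) in each of the 16 libraries, with genes ordered by their mean level and points coloured by group. Grin3b and Grm8 sit above 80% and Grin1, Gabbr1, Grik3 and Gabbr2 near 5%, and within a gene the 4 groups mostly overlap.

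Grin3b was the most methylated member. It encodes an NMDA subunit that lowers calcium permeability, and its body is 6476 bases long (chr10:79970715-79977190, plus strand). In IFC its level was 91.7%, 95.5%, 98.0% and 93.5%, and in SO 82.9%, 91.1%, 93.5%, 93.9% and 86.3%. In SOA it was 97.2%, 78.3%, 100% and 93.3%, and in IV 83.6%, 89.9% and 95.6%. Every library but SOA2 was above 80%, and the groups overlapped throughout. The value of 100% rested on 42 of 42 calls (91.6% to 100), and that of SOA2 on 47 of 60 (66.4 to 86.9). Grin3b shares 2243 bases with Tmem259, a gene on the opposite strand, and its remaining bases were methylated at 89.5%. Both of its measured tiles (runs of 100 CpGs) were methylated, as was the 1000 bases upstream of its start, with 206 of 219 calls (94.1%, 90.1 to 96.5). The 50 kb beyond its promoter stood at 62.3% and the 50 kb beyond its end at 49.2%.

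Grm8, a presynaptic glutamate receptor that couples to inhibitory G proteins, differed from Grin3b in size and in its promoter. Its body spans 860060 bases (chr6:27275119-28135178, minus strand). In IFC the level was 85.4%, 82.5%, 81.9% and 76.6%, and in SO 84.1%, 84.1%, 82.2%, 81.2% and 82.9%. In SOA it was 88.4%, 86.7%, 82.8% and 83.9%, and in IV 83.1%, 84.2% and 84.7%. IFC4 was the lowest and SOA1 the highest, and the groups overlapped. Of its 44 measured tiles 35 were methylated and 0 unmethylated. The 50 kb beyond the promoter stood at 5.52% and the 50 kb beyond the end of the gene at 22.9%, so the level dropped beyond both ends of the gene.

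Grik5, the gene of a high-affinity kainate subunit (chr7:25009849-25072346, minus strand), missed the limit of a methylated body only in SOA. Its level was 84.2%, 90.7%, 84.1% and 85.7% in IFC and 87.0%, 80.5%, 87.5%, 86.8% and 84.4% in SO. It was 81.3%, 83.1%, 75.9% and 79.3% in SOA and 77.2%, 84.6% and 81.2% in IV. All IFC libraries were above all SOA libraries, with a difference of 6.26 points (SE 2.19) that did not pass the test described below (adjusted p = 0.331).

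The least methylated members were Grin1, Gabbr1, Grin2c, Grm6, Grik3 and Gabbr2. Grin1 (chr2:25291181-25319187) stood at 4.35%, 1.61%, 3.88% and 3.95% in IFC, 4.13%, 2.84%, 3.89%, 6.45% and 4.71% in SO, 1.88%, 1.89%, 2.63% and 2.11% in SOA, then 7.41%, 4.14% and 2.09% in IV. SOA was uniformly low and IV1 the highest. Grin1 shares 7706 bases with the antisense gene Grin1os, and its remaining bases stood at 3.58%. Gabbr1 (chr17:37045966-37075067) stood at 2.55%, 1.3%, 1.77% and 2.02% in IFC, 1.5%, 4.05%, 3.82%, 6.84% and 2.58% in SO, 2.29%, 1.31%, 6.67% and 2.68% in SOA, then 17.5%, 5.70% and 4.09% in IV. IV1 again stood above the other libraries, most of which were below 5%. Grik3, a long kainate subunit gene (chr4:125490700-125714173), stood at 4.99%, 5.41%, 4.94% and 6.35% in IFC, 3.83%, 6.36%, 4.19%, 8.19% and 4.03% in SO, 4.81%, 5.30%, 3.63% and 3.33% in SOA, then 14.3%, 6.23% and 4.02% in IV. Apart from IV1 its groups overlapped within a few points. All 34 measured tiles of Grik3 and all 44 of Gabbr2 (chr4:46662305-46991873) were unmethylated.

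IV1 moved with the low members as a set. It was the highest of the 16 libraries in 9 of the 15 unmethylated members (60%), and in 2 of the other 19. Of the 16 members below 20% in IFC, SO and SOA it was highest in 9, beside the 42.6% of all such gene bodies given above. The unmethylated members pooled stood at 16.0% in IV1, at 11.0% in the next highest library and at 6.42% in the lowest. The IV mean for these members, 10.4% ± 4.87 (SD, n = 3), therefore carried the spread of a single library. What sets IV1 apart was not tested.

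Promoters were mostly unmethylated whatever the body. In the 1000 bases upstream of the annotated start, 29 of the 34 members were below 20% (0.864% to 11.3%), Grin3b and Grin2d were above 80%, and Grin2c (67.1%, 153 of 228 calls, 60.8 to 72.9), Grm4 (49.3%, 33 of 67) and Grm2 (31.1%, 89 of 286) lay between. For Grin2d, where 74 of 79 calls were methylated (93.7%), the GENCODE start lies 11697 bases upstream of the RefSeq one and the gene shares 5607 bases with Kdelr1. At the RefSeq start of Grin2d 2 of 47 calls were methylated (4.26%, 1.17 to 14.2), and its bases outside other genes stood at 7.56%. In 5 members, a promoter below 20% led into a body above 50%.

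**Figure D2:**
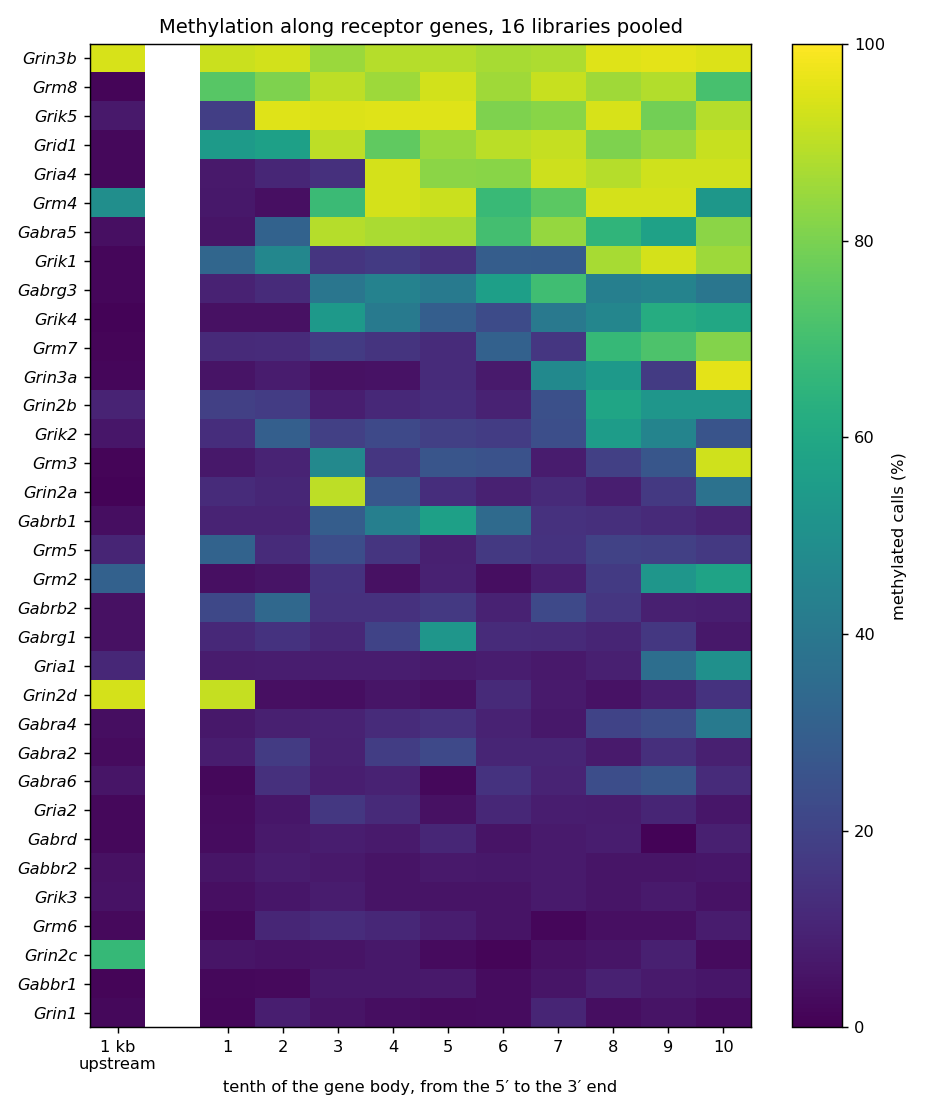
Methylation level along each receptor gene body (percent of methylated calls, all libraries pooled), from the start to the end of the gene in 10 equal parts, with genes ordered by their body level. The first part is below 20% in 27 of the 34 genes, and 10 genes hold both a part above 80% and a part below 20%.

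Many bodies were mosaics, with the level changing along the gene. With each body divided into 10 equal parts, the first part was below 20% in 27 members and above 80% in Grin3b and Grin2d. In 10 members at least 1 part was above 80% and at least 1 below 20%, every part was below 20% in 8 members, and every part was above 80% in Grin3b alone. Of 635 measured tiles over the receptor genes, 115 were methylated (18.1%, against 24.6% of all tiles), 324 unmethylated (51.0%, against 41.6%) and 196 between.

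Gria4, a fast AMPA subunit gene, held the longest run of adjacent methylated tiles of any member: 11 tiles at chr9:4413271-4668745, with tile centres from 137 to 375 kb from its start. The run stood at 90.4% in IFC, 88.9% in SO, 90.7% in SOA, with 87.4% in IV, while the rest of the gene stood at 23.2%, 17.7%, 17.8% and 18.8%. Grm7, a presynaptic metabotropic receptor gene, held a run of 4 tiles at 91.9%, 861 to 915 kb from its start, and the 50 kb beyond its end stood at 90.4%. Grik1 held 3 tiles at 93.9% (321 to 346 kb) and Grin2a 3 tiles at 93.1% (89.5 to 119 kb). Grm3 had a single methylated tile, at 220.6 kb (92.7%), and the 50 kb beyond its end stood at 95.3%. Gria1 showed no methylated tile: 21 tiles over its first 252.5 kb averaged 8.02%.

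Each of the 34 bodies was then compared between groups in a quasi-binomial logistic model of the calls fitted to all 20055 gene bodies, with dispersions moderated by limma and Benjamini-Hochberg adjustment at 0.05. The comparisons (IFC with SO, IFC with SOA, SO with SOA and SOA with IV) share libraries and are not independent of each other. Differences are in percentage points between group means of the libraries. The test pools the calls of each group, so a deep library weighs more in the p-value than in the difference and SE. SOA4 held 74738 receptor calls, and the other SOA libraries 16646 to 19872.

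Between IFC and SO no member was called, against 0.269% of all gene bodies. At an unadjusted p below 0.05 there were 3 members (7.31% of all gene bodies), a plain likelihood-ratio test, which has no term for the spread between pools, called 9 (19.3%), and limma on the percentages called 0. The largest difference was in Grik4, a high-affinity kainate subunit gene, with 35.4%, 33.0%, 33.4% and 23.5% in IFC and 40%, 39.6%, 37.2%, 35.7% and 35.6% in SO. All IFC libraries were below all SO libraries, IFC4 by most, and the difference of -6.33 points (SE 2.83) did not pass (adjusted p = 0.461), with -3.71 points left without IFC4. It was the only member whose IFC and SO libraries did not overlap, which 2.87% of all gene bodies did.

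Between SO and SOA no member was called either, against 1.48% of all gene bodies, with 7 at an unadjusted p below 0.05 (9.89%), 18 by the likelihood-ratio test (23.9%) and 0 by limma. Libraries did not overlap in 2 members, Grin1 and Grm5, against 4% of all gene bodies. Grm5, a receptor coupled to phospholipase C, stood at 19.5%, 21.2%, 18.0%, 20.1% and 19.8% in SO and at 17.0%, 15.9%, 14.0% and 14.1% in SOA, a difference of 4.51 points (SE 0.882, adjusted p = 0.253). Grm2, a presynaptic autoreceptor, differed most, with 3.8%, 8.14%, 12.3%, 17.3% and 12.9% in SO and 19.2%, 28.0%, 21.7% and 14.9% in SOA. SOA4 lay within the SO range, and the difference of -10.1 points (SE 3.57) did not pass (adjusted p = 0.662). On positions with at least 2 calls it was -26.7 points (adjusted p = 0.761).

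Between SOA and IV no member was called and 0% of all gene bodies were, with 8 members at an unadjusted p below 0.05 (8.37%), 16 by the likelihood-ratio test (24.7%) and 0 by limma. Gabra5, an alpha subunit of extrasynaptic receptors, differed most, with 53.7%, 65.8%, 66.0% and 51.6% in SOA and 53.7%, 43.8% and 47.0% in IV. IV1 lay within the SOA range, and the difference of 11.1 points (SE 4.83) did not pass (adjusted p = 0.631). On positions with at least 2 calls it was 25.95 points (adjusted p = 0.523). Libraries did not overlap in Gria4, higher in SOA by 6.73 points (SE 2.02, adjusted p = 0.590), and Gria2, lower by 4.43 points (SE 2.06, adjusted p = 0.574), against 6.54% of all gene bodies.

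Between IFC and SOA 1 member was called, Grik2, against 2.4% of all gene bodies, with 10 at an unadjusted p below 0.05 (12.4%), 22 by the likelihood-ratio test (28.2%) and 0 by limma. Grik2 encodes a widely expressed kainate receptor subunit and spans chr10:49094833-49788766 on the minus strand. Its level was 33.6%, 33.0%, 30.4% and 26.6% in IFC, 24.5%, 25.8%, 23.2%, 25.5% and 27.3% in SO, 21.9%, 25.7%, 20.1% and 21.4% in SOA, then 31.4%, 24.9% and 23.5% in IV. All IFC libraries were above all SOA libraries, IFC4 and SOA2 by the least. Grik2 was higher in IFC by 8.62 points (SE 2.0, adjusted p = 0.0325). The call was lost without SOA4 (adjusted p = 0.260), IFC1 (0.166), IFC2 (0.0947), IFC3 (0.0866) or SOA3 (0.0619), with library depth in the model (0.101), and on positions with at least 2 calls, where the difference was 14.3 points (0.347). Among the shallow libraries the means were 30.9% in IFC (n = 4) and 22.5% in SOA (n = 3). Without IV1, Grm5 was called as well.

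Libraries of IFC and SOA did not overlap in 8 members, against 7.36% of all gene bodies. The members are long (median 196703 bases and 1230 CpGs). Neither this share nor the others over all gene bodies were matched to them for length or calls. IFC was higher in Grik2, Gria2 (4.81 points), Gabrg1 (5.41), Gabrb1 (4.56), Grik5 (6.26) and Grm5 (5.64), and lower in Grin3a (-8.17) and Grin2b (-7.93). Gria2 stood at 8.70%, 12.3%, 9.39% and 8.09% in IFC and 4.52%, 5.19%, 3.32% and 6.25% in SOA. Grin3a, the gene of a subunit that limits synapse maturation, stood at 25.0%, 23.7%, 25.7% and 18.1% in IFC and 32.4%, 31.4%, 33.9% and 27.4% in SOA. Apart from Grik2 none of these passed the test, with adjusted p from 0.163 (Grm5) to 0.462 (Gabrg1).

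**Figure D3:**
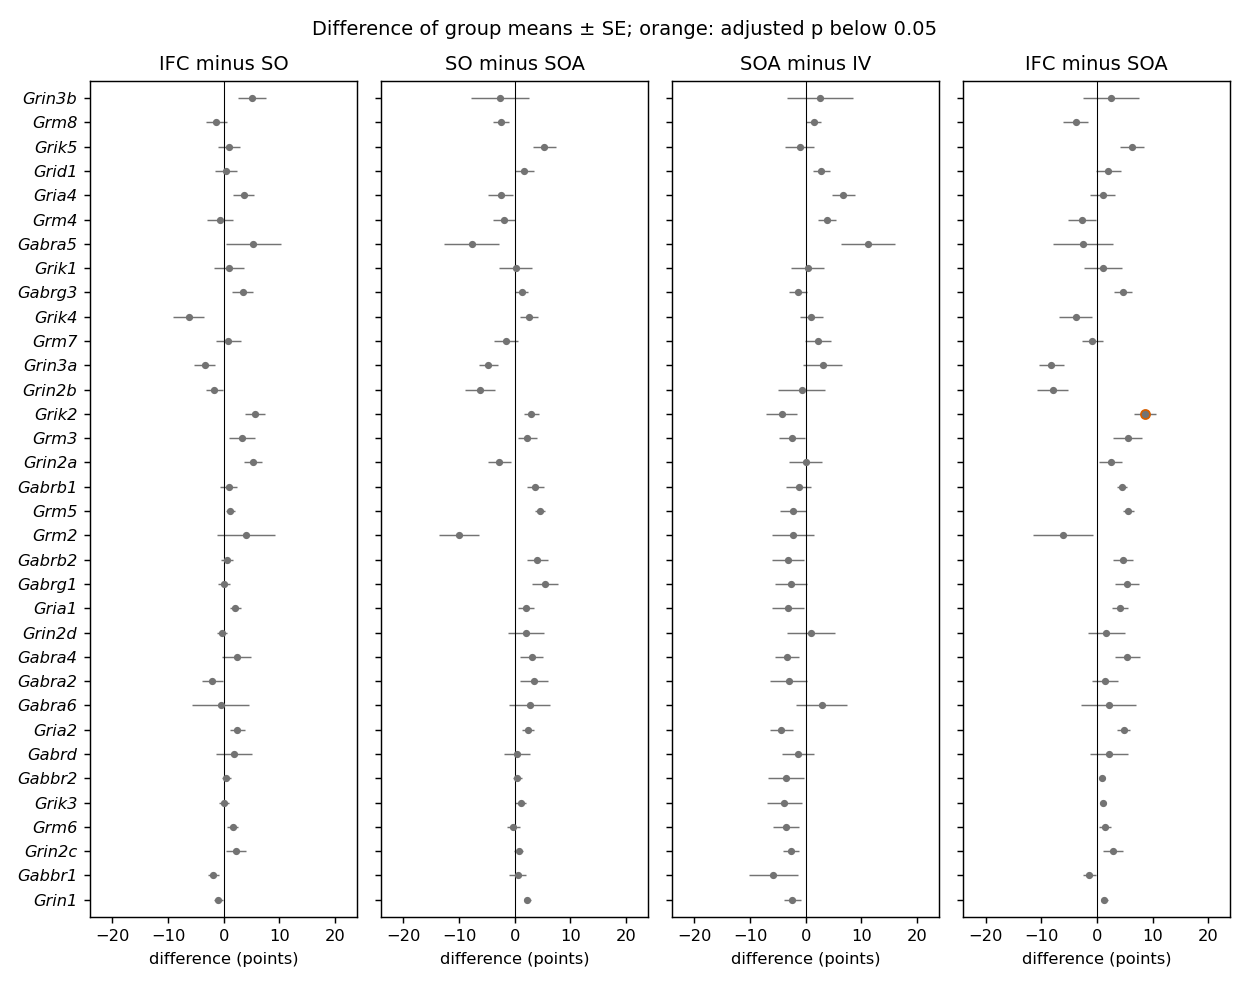
Difference in methylation level (percentage points, first group minus second) of each receptor gene body in each of the 4 comparisons, with bars of 1 standard error. Only Grik2 in IFC vs SOA, at 8.62 points, passed the test over all gene bodies.

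Pooled over the whole list, the groups differed by less than their spread. The calls of all 34 members pooled gave 36.6%, 35.6%, 34.7% and 30.2% in IFC, 35.4%, 34.4%, 32.4%, 33.4% and 31.0% in SO, 36.5%, 34.1%, 31.7% and 29.98% in SOA, then 36.9%, 31.8% and 30.9% in IV. SOA4 was the lowest library and IV1 the highest, and the groups overlapped. Over all calls of the library, SOA4 stood at 37.9% and IV1 at 43.2%, in a range from 37.6% (IFC4) to 43.7% (SOA1). The means were 34.3% ± 2.80 (SD, n = 4), 33.3% ± 1.71 (n = 5), 33.1% ± 2.85 (n = 4) and 33.2% ± 3.25 (n = 3). IFC was 0.974 points above SO, SO 0.240 above SOA, SOA 0.162 below IV (-0.162) and IFC 1.21 above SOA, each less than the SD within groups. Among the shallow libraries IFC lay below SO, with means of 34.3% in IFC (n = 4), 34.9% in SO (n = 2) and 34.1% in SOA (n = 3). In the deep libraries the level was 32.3% in SO (n = 3), 29.98% in SOA4 and 33.2% in IV (n = 3). Between IFC and SOA the pooled values were also taken by subset. The 9 GABA-A genes pooled stood at 29.0%, 31.3%, 28.4% and 27.2% in IFC and at 25.2%, 27.03%, 25.4% and 23.9% in SOA, 3.62 points apart with an SD within groups of 1.51. The 15 unmethylated members pooled stood at 9.16%, 9.97%, 8.84% and 9.45% in IFC and at 7.62%, 7.94%, 6.75% and 6.42% in SOA, 2.17 points apart with an SD of 0.610. These subsets share 6 genes, and in neither did the pooled values of IFC and SOA overlap. As unweighted means of the 9 GABA-A genes the libraries did overlap. They stood at 22.3%, 25.5%, 22.5% and 20.4% in IFC and at 18.8%, 22.7%, 19.0% and 17.8% in SOA. Unweighted means of the 15 unmethylated members did not overlap (9.35% in IFC1 against 9.14% in SOA2 at the nearest). No comparable sets of other genes were pooled beside them. The libraries overlapped in the other subsets, where IFC minus SOA was 3.38 points for AMPA (SD 3.02), 1.40 for kainate (SD 3.35), -2.31 for NMDA (SD 3.22), 2.04 for Grid1 (SD 3.16), -0.403 for the metabotropic receptors (SD 3.45), 0.726 for GABA-B (SD 0.677), 0.768 for the 17 members between the limits (SD 3.09) and -3.19 for the 2 methylated members (SD 2.97). In the other comparisons some subsets also differed by more than the SD. IFC minus SO was 3.10 for AMPA (SD 2.14) and 1.92 for GABA-A (SD 1.47). SO minus SOA was -3.40 for NMDA (SD 3.12), 1.70 for GABA-A (SD 1.25), 1.515 for the unmethylated members (SD 1.09) and -2.45 for the methylated ones (SD 1.87). SOA minus IV was 2.79 for Grid1 (SD 2.07). These pooled values carry no test. Means of single members were higher in the first group in 24 of 34 when IFC was set against SO (56.2% of all gene bodies), 25 with IFC against SOA (54.9%), 23 with SO against SOA (50%) and 12 with SOA against IV (55.5%). In the same order the median member difference was 0.895, 1.87, 1.14 and -1.43 points, against 0.553, 0.543, 0 and 0.708 over all gene bodies. The members were chosen with earlier results of these data known, so these counts and medians are no result about the receptor genes. The values for SOA against IV include IV1, the highest library in 9 of the 15 unmethylated members.

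**Figure D4:**
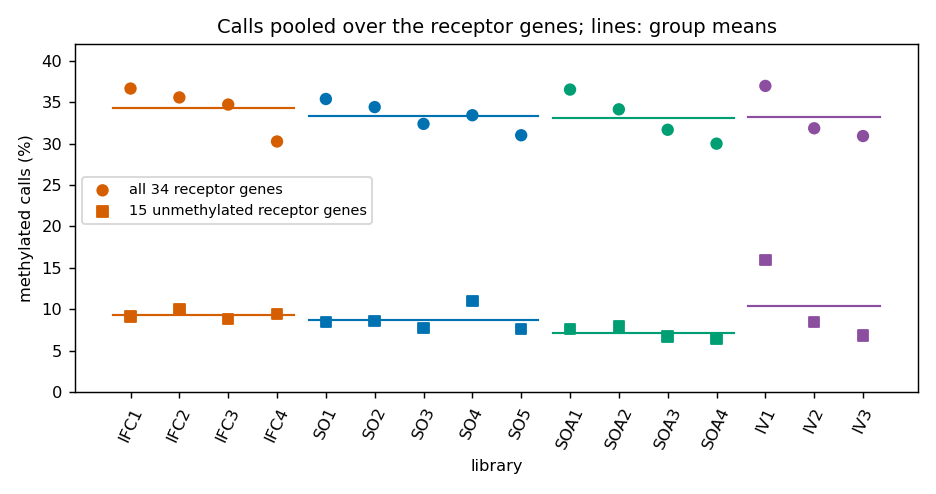
Methylation level of the 34 receptor genes pooled, and of the 15 unmethylated ones pooled (percent of methylated calls), in each library, with a line at the mean of each group. For all 34 genes the 4 groups overlap, with means from 33.1% to 34.3%.

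Tiles of 100 CpGs were compared with the same model over 195698 tiles. Of the 635 receptor tiles, 3 were called between IFC and SO (0.472%, against 0.307% of all tiles), 8 between SO and SOA (1.26%, against 1.46%), 0 between SOA and IV (0%, as for all tiles) and 24 between IFC and SOA (3.78%, against 2.65%). These shares were near those over all tiles, so the counts are no result about the receptor genes, and the called tiles are described by position. Between SOA and IV 51 tiles had an unadjusted p below 0.05 (9.49% of all tiles), the likelihood-ratio test called 35 (6.49%) and limma 0. The 3 between IFC and SO were lower in IFC, 2 of them in Grin2b and 1 in Grik4, and 0.0772% of all tiles were called higher in IFC. Of the 8 between SO and SOA 6 were higher in SO, as were 0.906% of all tiles. Of the 24 between IFC and SOA, 17 were lower in IFC and 7 higher (1.26% of all tiles were higher), and Grin2b held 10 of the former and Grid1 5 of the latter. Without SOA4 the counts fell to 1 between SO and SOA and 13 between IFC and SOA, and without IFC2 the latter was 15.

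Grin2b encodes an NMDA subunit of the developing forebrain (chr6:135713233-136173511, minus strand), and its called tiles lay together in the 3′ portion of the gene. They fell within 12 adjoining tiles at chr6:135730416-135856844, 322 to 441 kb from the start, which hold 11 annotated Grin2b exons and, on the opposite strand, the lincRNA Gm14329. Pooled over this stretch the level was 33.9%, 35.8%, 40.4% and 27.0% in IFC, 63.1%, 57.3%, 63.8%, 49.1% and 46.0% in SO, 79.1%, 64.0%, 71.9% and 65.4% in SOA, then 69.0%, 68.6% and 61.2% in IV, on 300 to 1456 calls per library. All IFC libraries lay below all others, SO lay below SOA with no overlap (63.8% against 64.0% at the nearest), and SOA and IV overlapped. The means were 34.3% ± 5.54 in IFC, 55.9% ± 8.09 in SO, 70.1% ± 6.92 in SOA, with 66.2% ± 4.40 in IV. The stretch was drawn around the called tiles, so it has no test of its own.

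In all 12 of these tiles the IFC mean was below the SO mean and the SO mean below the SOA mean. The tile at chr6:135809921-135823254 had the smallest adjusted p, with 20.2% ± 11.7 in IFC, 57.5% ± 5.71 in SO, 69.0% ± 5.82 in SOA, with 69.9% ± 1.48 in IV. It was lower in IFC than in SO (adjusted p = 0.00288) and than in SOA (1.34e-05). The number of Grin2b tiles called between IFC and SOA was 9 to 11 with any library left out, 1 to 2 between IFC and SO (1 without IFC1 or IFC4), and 0 to 3 between SO and SOA (0 without SO4, SO5, SOA1, SOA3 or SOA4). Among the shallow libraries the stretch stood at 34.3% in IFC (n = 4), 60.2% in SO (n = 2) and 71.7% in SOA (n = 3). In the deep libraries it stood at 53.0% in SO (n = 3), 65.4% in SOA4 and 66.2% in IV (n = 3). Between the start and the stretch the order was another: those 30 tiles averaged 17.8% in IFC, 10.8% in SO, 13.5% in SOA, with 17.2% in IV. The 2 tiles beyond the stretch, at the 3′ end, kept its order of IFC, SO and SOA, at 15.5%, 23.2% and 39.6%, and stood at 43.9% in IV.

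**Figure D5:**
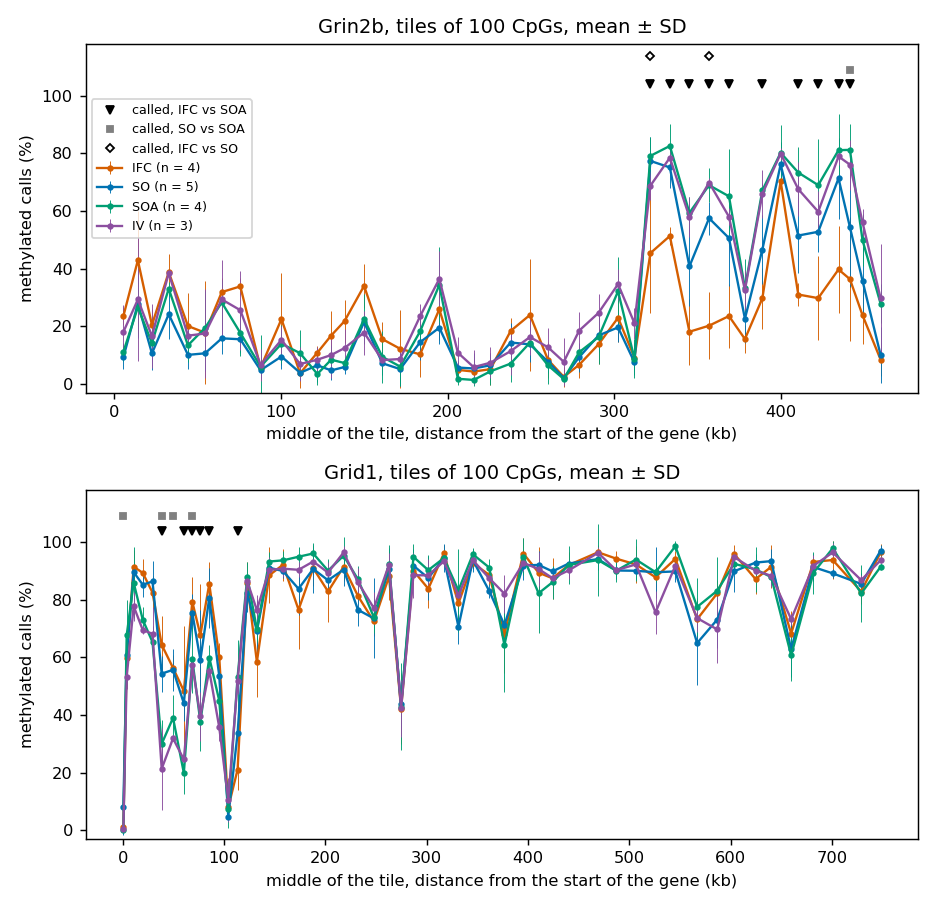
Group means of the methylation level (percent) of tiles of 100 CpGs against the distance from the gene start (kb) in Grin2b and Grid1, with bars of 1 SD over libraries and marks at the top for called tiles. In Grin2b IFC lies below the other groups between 322 and 441 kb, and in Grid1 IFC and SO lie above SOA and IV between 38 and 85 kb.

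Grid1 (chr14:34820108-35583379, plus strand) showed the opposite direction near its start. A stretch of 6 tiles at chr14:34854191-34910767, 38 to 85 kb from the start and within an intron that holds the microRNA gene Mir346, stood at 65.8%, 76.0%, 67.5% and 61.7% in IFC, 60%, 70%, 60.8%, 59.96% and 58.0% in SO, 39.3%, 43.1%, 45.9% and 38.6% in SOA, then 34.3%, 36.2% and 41.8% in IV. Both groups from young females lay above both groups from adults, without overlap. The means were 67.8% ± 6.03, 61.8% ± 4.72, 41.7% ± 3.40 and 37.4% ± 3.92, and this stretch too was drawn around called tiles. In the deep libraries it stood at 59.6% in SO (n = 3), 38.6% in SOA4 and 37.4% in IV (n = 3). The calls leaned on single libraries: Grid1 tiles called between SO and SOA numbered 4, and 0 without SOA4, and those between IFC and SOA numbered 6, and 1 without IFC2 or without SOA4. Of the 4 tiles called between SO and SOA 3 lay in the stretch and 1 at the start of the gene, where, on 8 to 139 calls per library, SO3 stood at 24.04%, the other SO libraries at 0% to 9.68%, and all SOA libraries at 0%. A tile at 113 kb went the other way, with 21% in IFC, 33.6% in SO, 53.2% in SOA, with 51.9% in IV. The rest of Grid1 stood at 77.4%, 77.9%, 79.2% and 76.8%.

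Other called tiles were scattered. In Grik4 the tile at 418.8 kb stood at 58.5% in IFC, 86.9% in SO, 89.5% in SOA, with 80.9% in IV, and was lower in IFC than in SO (adjusted p = 0.0323), a call lost without IFC2, IFC4, SO1, SO2 or SO3. It was also lower in IFC than in SOA (adjusted p = 0.00256), as was the Grik4 tile at 363.7 kb, with 50.6% in IFC and 76.3% in SOA (adjusted p = 0.0370), and 1 of these calls was lost without IFC4, SOA1, SOA3 or SOA4. In Grm8 the tile at 300.4 kb stood at 61.5%, 76.5%, 90.2% and 86.3%, and that at 279.9 kb at 81.3%, 92.0%, 98.8% and 90.3%, both lower in IFC than in SOA and neither called without SOA4. In Grin3a the tile at 142.4 kb stood at 22.5%, 45.8%, 54.5% and 50.2%, and in Gabrg3 the tile at 298.8 kb at 42.2%, 58.0%, 68.2% and 63.4%, with lower levels in IFC than in SOA. In Grik2 a tile at 579.5 kb went with its body, at 58.7%, 43.3%, 33.4% and 53.5%, and in Gabrb1 a tile at 231.8 kb was higher in SO (73.8%) than in SOA (47.3%). In Grik5 the tile at the start was higher in SO (24.7%) than in SOA (5.74%), in Grm2 a tile at 2.4 kb was lower in SO (1.26%) than in SOA (16.1%), and in Grm4 a tile at 5.0 kb was higher in IFC (16.6%) than in SOA (2.63%). Each of these calls was lost when single libraries were left out: in Grik5 without SO4, SO5 or SOA4, in Gabrb1 without SOA4, in Gabrg3 without IFC1, SOA2, SOA3 or SOA4, in Grik2 without IFC1, IFC4, SOA1 or SOA4, and in Grin3a without IFC2, IFC3, IFC4, SOA1, SOA2 or SOA3. The Grm2 call was held in 5 and the Grm4 call in 6 of the 16 fits that left out a library.

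Other genes of the same pathway, from lists of related proteins, covered the same range of levels. A further 11 subunits of these receptors had a median of 34.5%, from 4.63% at Gabrr2 to 67.5% at Gabrq, with 0 methylated and 2 unmethylated. The 22 auxiliary subunits, which control trafficking and gating, had a median of 23.8%, with 1 methylated (Cnih2, 94.6%) and 10 unmethylated. The 22 synaptic scaffold and adhesion genes had a median of 55.6%, with 3 methylated and 7 unmethylated, and the 18 genes of transmitter synthesis and transport a median of 17.9%, with 0 methylated and 9 unmethylated. The 5 glycine receptor genes ran from 20.4% at Glrb to 88.5% at Glra4.

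Of these 78 genes, 1 passed the test between IFC and SO (1.28%, against 0.269% of all gene bodies): Cacng3, an auxiliary subunit of AMPA receptors, at 29.9% in IFC and 49.6% in SO (-19.7 points, SE 2.68, adjusted p = 0.00437). Between SO and SOA 1 passed (1.28%, against 1.48%), the scaffold gene Dlgap2, higher in SO by 6.84 points (adjusted p = 0.00108). Between IFC and SOA 8 passed (10.3%, against 2.4%), 5 lower and 3 higher in IFC. The lists were chosen with earlier results of these data known, so these shares are no result about the pathway. Cacng3 (-29.8 points), Slc17a8, a vesicular glutamate transporter gene (-24.1), Cacng4 (-13.9), Nlgn1 (-13.6) and Shisa9 (-13.5) were lower in IFC, and Glra2 (13.2), Dlgap2 (9.10) and Dlg2 (6.23) were higher. Between SOA and IV none passed, as for all gene bodies, of which 1679 had an unadjusted p below 0.05 and 4956 passed the likelihood-ratio test.

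Across the 34 members, longer bodies tended to be more methylated (Spearman rho = 0.451, against 0.322 over all gene bodies) and CpG-denser bodies less so (-0.266, against -0.114). These are descriptions across genes, which share libraries and are not independent replicates.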

How the data were processed

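Each of the 16 PBAT libraries was deposited as a table of covered CpG positions with the percent methylated and 2 counts, of methylated and of unmethylated calls, which the authors made with Trim Galore, cutadapt and Bismark 0.19.0 on GRCm38 after removing duplicates, without normalization. Only the counts were used here. C-to-T variants of the CBA/Ca parent may be called unmethylated, and all groups carry the same cross. Calls were pooled per gene body (GENCODE M21, at least 20 calls in every group) and per tile of 100 CpGs (at least 5 covered positions in every library). A quasi-binomial logistic model of group alone was fitted to all 16 libraries, with Pearson dispersions moderated by squeezeVar of limma 3.58.1, an F test, and Benjamini-Hochberg adjustment at 0.05 over all features, in place of the study's plain logistic test, which was an alternative with limma on percentages and other filters. The model was also run on simulated calls with a shared dispersion, where shifts were put only into bodies of middle level. That run does not cover small differences in weakly methylated bodies, and its outcome is not reported here. Replicates differed by more than binomial counting of independent calls would give (chi-square per degree of freedom at least 2.98). Calls on the same read are not independent, so this value does not measure differences between pools alone. Members and lists were chosen with earlier results of these data known. Values for single libraries, in some cases of the compared groups only, were given for the methylated members and some of the lowest. They were also given for members with the largest difference or a call and for some without overlap. Tiles were named where called, and related genes where at an extreme of a list or called. Some related genes are not reported here. Python 3.11.15 and R 4.3.3 were used. Wilson intervals are at 95%.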

Additional observations from a re-analysis of the deposited data

Results flagged for a closer look

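Dixon's ratio was taken for 37 quantities (34 gene bodies, their pool and the Grin2b and Grid1 stretches) in the groups of 4 or 5 libraries, 111 groups in all, and 5 held a library far from the rest of its group. Chance alone gives about 1 in 20 groups. In Grin1, IFC2 stood at 1.61% and the other IFC libraries at 3.88% to 4.35%. In Gabbr2, SO4 stood at 8.15% and the other SO libraries at 4.46% to 5.49%. In Gabrb2, the gene of a common GABA-A beta subunit, IFC4 stood at 16.1% and the others at 18.6% to 18.9%. In Grm4, a presynaptic metabotropic receptor gene, SO1 stood at 52.7% and the others at 57.9% to 59.9%. In the Grid1 stretch, SO2 stood at 70% and the others at 58.0% to 60.8%. What set these libraries apart was not tested.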

How the results depend on the processing

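The numbers of receptor bodies called in IFC vs SO, IFC vs SOA, SO vs SOA and SOA vs IV (0, 1, 0 and 0) became 9, 22, 18 and 16 with the likelihood-ratio test. For IFC vs SOA the count was 0 with limma on body percentages, on position means and on centred percentages, with a term for depth, with positions of at least 2 calls and with a minimum difference of 10 or of 20 points. Leaving out each library gave 0 to 2 for IFC vs SOA (0 without IFC1, IFC2, IFC3, SOA3 or SOA4, 2 without IV1) and 0 to 0 for the others. Called tiles became, in the same order, 43, 103, 64 and 35 with the likelihood-ratio test, 1 for SO vs SOA with limma and 3 with a minimum of 20 points, and ran over libraries left out from 1 to 4, 13 to 25, 1 to 9 and 0 to 0. For the likelihood-ratio test a share of all tiles is at hand for SOA vs IV only (6.49%). The other tile counts by that test are therefore no result about the receptor genes. With the replicate number as a block, IFC vs SOA called 2 bodies (Grin2b and Grik2), IFC vs SO 5 tiles and SO vs SOA 2 tiles. No share over all gene bodies or tiles stands beside these counts, so they are no result about the receptor genes. The replicate numbers do not pair the libraries: over 21 pairs of the same number the correlation of deviations ran from -0.0728 to 0.0639, and 5 libraries correlated best with their own number. With limits of 70% and 30% there were 4 methylated members (Grid1 and Grik5 added), and with a single limit of 50% there were 6 methylated and 27 unmethylated. The difference of the pooled list ran over libraries left out from 0.192 to 2.32 points (IFC vs SO), 0.186 to 2.56 (IFC vs SOA), -0.788 to 1.39 (SO vs SOA) and -1.33 to 1.70 (SOA vs IV), and in the last 2 comparisons its sign changed among these fits. The 2.32 and 2.56 points were reached without IFC4. For Grik2 the call was lost in 12 of 31 alternatives, with adjusted p from 0.00539 to 0.260 over libraries left out, 0.155 with limma and up to 0.347 over all alternatives. Depth limits short members most: Gabra6 and Grin3b rest on as few as 12 and 42 calls per library, and differences of a few points in them were not detectable.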

Other observations

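Beyond the receptor genes, 20 genes known from oocytes and 16 known from granulosa and cumulus cells were measured in the same way. The oocyte genes had a median body level of 53.9%, from 2.06% at Khdc3 to 85.2% at Kit, with 1 methylated and 4 unmethylated. The granulosa and cumulus genes had a median of 20.0%, from 1.32% at Foxl2, a transcription factor of granulosa cells, to 93.5% at Hsd17b1, an enzyme of estradiol synthesis, with 3 methylated and 8 unmethylated. No gene of either list passed the limma-moderated test in any of the comparisons.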
